A study of Mus musculus with 6 samples.

Results

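The genes of the cytosolic ribosome's proteins were followed in the mouse adrenal gland with and without chromogranin A. They were taken as every probe set on the array whose single platform symbol starts with Rpl or Rps and a number, or with Rplp, together with Rpsa, and without the ribosomal S6 kinases. The rule found 49 probe sets of 35 genes, among 12422 probe sets of 8251 genes with a symbol of their own. Of the 35 genes, 17 encode proteins of the large subunit and 18 of the small subunit, paralogues included. A gene was represented by its probe set of highest mean signal.

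The ribosome joins a small subunit, which reads the messenger RNA, to a large subunit, which forms the peptide bonds. Its proteins are needed in near equal numbers, and their messenger RNAs are among the most abundant of most cells. Most of these messenger RNAs begin with a run of pyrimidines, the 5′ terminal oligopyrimidine (TOP) tract, through which growth signals by mTOR act on their translation. Several of the genes also serve as reference transcripts in expression studies.

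The adrenals came from male mice of 12 weeks, with 3 Chga knockout and 3 wild-type animals and 1 array per animal. The knockout mice lack chromogranin A, a storage granule protein of the chromaffin cells. The labels point to a published description of the line for both groups and name no genetic background. The glands were analysed whole, so that fewer cells of a type and less RNA per cell cannot be told apart.

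Chga had a mean signal of 37413 ± 8452 in wild-type and 999 ± 170 in knockout adrenals (SD, n = 3 arrays each; limma adjusted p = 5.29e-06), as the labels state. Summed markers of the cortex (7 genes) read 437489 to 534782 over the 6 arrays. Summed markers of chromaffin cells (6 genes) read 192737, 205552 and 196577 in knockout and 179822, 161962 and 163133 in wild-type adrenals, without overlap. Their median log2 change was 0.21 with 5 of 6 values higher, and 0 passed in limma, while 1, the granule protein gene Chgb, was higher at an unadjusted p under 0.05 (0.48 ± 0.13, adjusted p = 0.230). Much of each sum was Chgb, at 93585, 120199 and 98209 in knockout and 69305, 77123 and 76132 in wild-type adrenals. Groups overlapped for every other marker of this list, and Pnmt was lower (-0.23). Over all tested probe sets, 16.4% had groups that did not overlap. The arrays differed in other respects. Summed skeletal muscle markers (15 of 16 genes on the array, 9 past the filter described below) read 11826, 91909 and 48027 in knockout adrenals 1 to 3, and between 11976 and 13599 in wild-type adrenals. Acta1 alone read 565, 32131 and 13869 in these knockout adrenals. Of the 9 tested, 6 were higher in knockout, with a median log2 change of 0.85 over the 9, and 0 passed in limma. The other 3, Ckm (-0.17), Myh4 (-0.08) and Actn3 (-0.24), were lower. The Gapdh control gave a 3′ signal over its 5′ signal, a sign of RNA integrity, of 0.831, 1.30 and 1.29 on the knockout arrays and 0.762 to 0.806 on the wild-type arrays. The actin control gave 1.32, 1.69 and 1.72 on the knockout arrays and 1.14 to 1.22 on the wild-type arrays. By both controls, knockout array 1 also lay above every wild-type array.

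No ribosomal protein gene among the 26 tested was found to differ between the genotypes. For most of the 26, the intervals left room only for changes of less than 2-fold. Probe sets that list a ribosomal protein gene beside other symbols are not counted here and are described below. In limma, fitted over the 7453 probe sets whose mean log2 signal reached the 40th percentile (a signal of about 582), 26 of the 35 genes were tested and 0 had an adjusted p under 0.05, where 0.443% of all tested probe sets did. At an unadjusted p under 0.05 there were also 0 of 26, where 11.3% of all tested probe sets passed (5.06% higher and 6.25% lower in knockout). The median log2 change, knockout minus wild type, was 0.02, with 14 values above and 12 below 0, against a median of -0.01 over all tested probe sets. The values ran from -0.60 (Rps4l) to 0.32 (Rpl22), and their quartiles were -0.11 and 0.14. The large subunit (12 genes tested) had a median of 0.02 and the small subunit (14 genes) one of 0.01.

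The intervals show which changes the arrays could still hide. The 95% interval of the log2 change lay within a 2-fold difference in either direction for 24 of the 26 genes (92.3%), and within 1.5-fold for 18 (69.2%). Over all tested probe sets these shares were 79.0% and 34.3%, and over the 353 with a mean signal above 20000 they were 91.5% and 72.5%. Of the 26 genes, 18 were that bright, and of these 18 (100%) lay within 2-fold and 16 (88.9%) within 1.5-fold. Of the 8 dimmer genes, 6 and 2 did. The difference from other bright probe sets was not tested. Only for Rps13 and Rps4l did the interval reach beyond 2-fold.

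**Figure D1:**
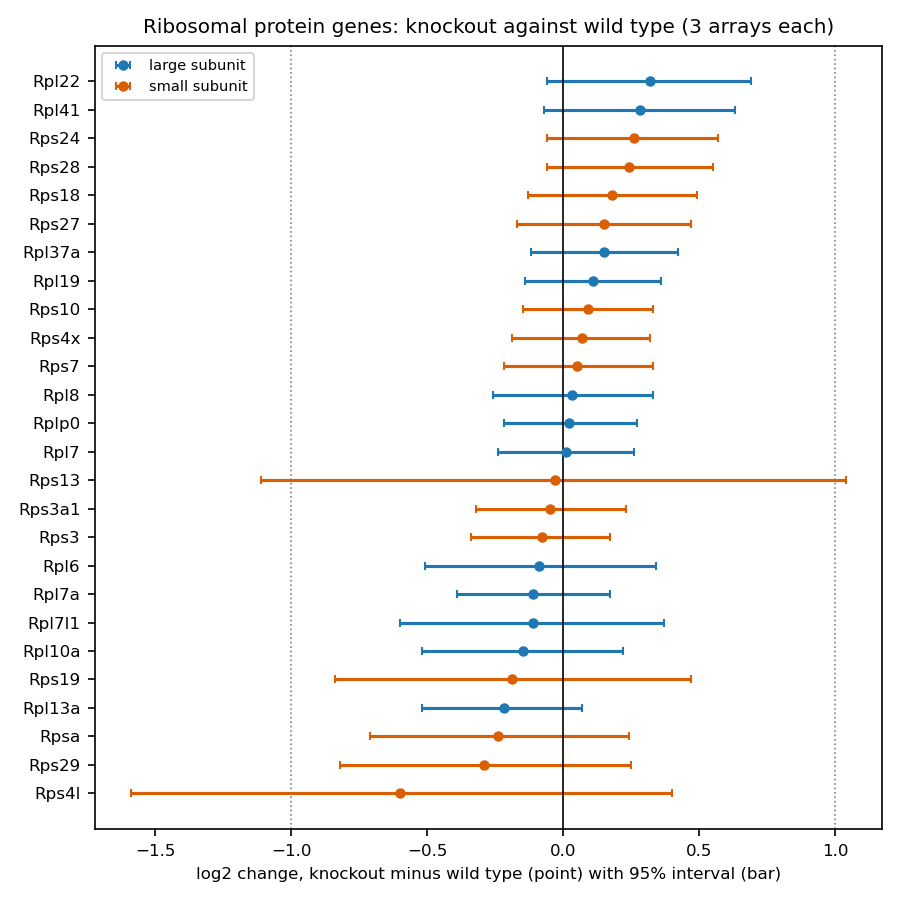
Log2 change between 3 knockout and 3 wild-type arrays for the 26 tested ribosomal protein genes, one gene per row, with points for the estimate, bars for the 95% interval and colours for the subunit. Every interval crosses 0, and 24 of 26 lie between the dotted lines at a 2-fold change.

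What the genes share besides their products can be read in their promoters. RefSeq (GRCm38.p6) gave 37 windows, from 250 bases before to 50 after an annotated start, for 28 of the 35 genes. The motif CGGAAG, the core bound by ETS family factors, was searched on both strands (reverse CTTCCG) and was held by 20 of 37 windows (54.1%), against 21.1% of 21262 windows of all protein-coding genes. The element TCTCGCGA (both strands, reverse TCGCGAGA) was in 16.2% of the ribosomal protein windows and 1.41% of all. CTTTCC, a stretch of the kind found in TOP tracts and searched on the gene's strand alone, was in 45.9% and 13.9%. TATAAA (both strands, reverse TTTATA) was in 10.8% and 12.6%. No CGGAAG match overlapped a CTTTCC or TCTCGCGA match in these windows. These shares describe letters in the windows, not bound sites, and annotated starts can lie some bases from the used ones.

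The following windows run from 40 bases before to 20 after the start, 5′ to 3′ on the gene's strand, with matches of CGGAAG, TCTCGCGA and CTTTCC or their reverses (for CTTTCC the forward letters only) in capitals. They are shown for genes described below, and 1 with no match stands for contrast. Windows with a match are over-represented among those shown, and other annotated starts of Rps19 had none in this stretch. Over all 37 windows, this stretch held CGGAAG in 27.0%, TCTCGCGA in 10.8% and CTTTCC in 21.6%. For all protein-coding genes these shares were 8.72%, 0.522% and 2.69%.
Rpl41 (chr10:128549149-128549208, minus strand): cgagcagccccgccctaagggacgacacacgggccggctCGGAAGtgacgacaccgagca
Rps18 (chr17:33955646-33955705, minus strand): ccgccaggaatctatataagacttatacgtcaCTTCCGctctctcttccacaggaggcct
Rpl37a (chr1:72711220-72711279, plus strand): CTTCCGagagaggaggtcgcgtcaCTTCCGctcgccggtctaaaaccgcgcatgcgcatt
Rps10 (chr17:27635225-27635284, minus strand): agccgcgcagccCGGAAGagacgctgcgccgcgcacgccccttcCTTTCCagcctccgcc
Rps28 (chr17:33824543-33824602, minus strand): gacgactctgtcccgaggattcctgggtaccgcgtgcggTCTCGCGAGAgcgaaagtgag
Rps19 (chr7:24884552-24884611, plus strand): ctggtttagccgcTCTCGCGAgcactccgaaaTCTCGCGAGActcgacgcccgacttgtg
Rps27 (chr3:90213629-90213688, minus strand): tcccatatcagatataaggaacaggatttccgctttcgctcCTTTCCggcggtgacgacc
Rpl13a (chr7:45128726-45128785, minus strand): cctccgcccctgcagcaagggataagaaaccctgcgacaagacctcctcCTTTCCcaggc
Rplp0 (chr5:115559427-115559486, plus strand): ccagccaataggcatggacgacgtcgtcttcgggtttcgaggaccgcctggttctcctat
The tested genes whose full windows held CGGAAG (14 genes) had a median log2 change of 0.07, from -0.24 to 0.28, and the 8 genes with windows but no match one of -0.04, from -0.22 to 0.32. For TCTCGCGA the medians were -0.11 with a match (5 genes) and 0.07 without (17 genes), and for CTTTCC -0.03 (10 genes) and 0.06 (12 genes). The ranges with and without a match overlapped for each of the 3 motifs, and no difference was tested.

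In the large subunit, Rpl22, whose product is known for a role in lymphocyte development, had the largest positive value. It read 4662, 5017 and 3985 in knockout and 4099, 3126 and 3739 in wild-type adrenals, each given in the order of replicates 1 to 3. The groups overlapped, and the log2 change, 0.32 ± 0.17, missed the threshold (standard error; limma adjusted p = 0.505). A dimmer probe set of Rpl22 gave 1306 ± 368 and 1307 ± 227 (SD, n = 3 arrays each), a log2 change of -0.02 ± 0.26 whose sign turned with the scaling and with the arrays kept.

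Rpl41, which encodes the shortest ribosomal protein, read 119451, 158969 and 125603 in knockout and 100068, 131068 and 101330 in wild-type adrenals. The highest value was that of knockout array 2, and wild-type array 2 lay above the other knockout arrays. The log2 change was 0.28 ± 0.15 (adjusted p = 0.520). Rpl37a, whose product carries a zinc-binding motif, read 27586, 25138 and 29191 against 23818, 26447 and 23441, a log2 change of 0.15 ± 0.12. Its groups overlapped through wild-type array 2.

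Rpl13a was the gene among the 26 whose groups did not overlap. Its product has been described as leaving the ribosome to silence inflammatory messages. It read 6066, 5975 and 6591 in knockout and 7306, 7592 and 6849 in wild-type adrenals, all knockout arrays below all wild-type arrays. The log2 change was -0.22 ± 0.13 and missed the threshold (adjusted p = 0.544). Groups did not overlap for 16.4% of all tested probe sets, 7.55% with knockout higher and 8.83% with it lower, and for 0 and 1 of the 26 genes in these directions.

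Rpl10a, Rpl6 and Rpl8 were uneven within the knockout group. Rpl10a, of the mobile L1 stalk, read 38055, 28029 and 24364 in knockout and 33710, 32132 and 32594 in wild-type adrenals (log2 change -0.15 ± 0.16). Rpl6 read 53785, 45142 and 31742 against 48680, 41151 and 46064 (-0.09 ± 0.19). Rpl8, which lies close to the peptidyl transferase centre, read 66325, 52014 and 51103 against 54055, 53375 and 56879 (0.03 ± 0.13). In all 3 genes knockout array 1 was highest and knockout array 3 lowest of the 6 arrays. A second probe set of Rpl10a gave a log2 change of -0.13, close to the first.

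The other large subunit genes had values nearer 0 than Rpl22 and Rpl41. Rplp0, the base of the stalk that recruits translation factors, read 76962, 73100 and 67149 in knockout and 73188, 71905 and 68429 in wild-type adrenals. Its log2 change was 0.02 ± 0.11, with an interval of -0.22 to 0.27. Rpl19 (0.11), Rpl7 (0.01) and Rpl7a (-0.11) likewise had overlapping groups. Rpl7l1, a paralogue of Rpl7 with a role in ribosome assembly, had a value of -0.11 ± 0.21.

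In the small subunit, Rps24, a gene mutated in some cases of the inherited red cell failure Diamond-Blackfan anaemia, read 95586, 107124 and 96110 in knockout and 73826, 100829 and 77608 in wild-type adrenals. Wild-type array 2 overlapped the knockout arrays. The log2 change was 0.26 ± 0.14 (adjusted p = 0.519).

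Rps28 had 2 probe sets past the filter, with like values. The brighter read 90966, 118798 and 95767 against 83543, 93828 and 79652 (log2 change 0.24 ± 0.13, adjusted p = 0.522). The dimmer read 66786, 71035 and 64426 in knockout and 56222, 57575 and 55236 in wild-type adrenals, with no overlap. Its log2 change of 0.26 ± 0.10 was the only one of the 29 ribosomal protein probe sets tested to have an unadjusted p under 0.05, and it did not pass over all probe sets (adjusted p = 0.408). A share of 11.3% of all tested probe sets reached the unadjusted level.

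Rps18 and Rps27 had small positive values. Rps18, of the head of the small subunit, read 71969, 69671 and 60513 in knockout and 68786, 57958 and 52294 in wild-type adrenals (log2 change 0.18 ± 0.14). Rps27 read 6363, 5445 and 6209 against 4989, 5872 and 5323 (0.15 ± 0.14). Both pairs of groups overlapped.

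The lowest values belonged to Rps4l, Rps29 and Rpsa. Rps4l, an autosomal paralogue of the X-linked Rps4x, read 3883, 1089 and 1680 in knockout and 4460, 2126 and 2620 in wild-type adrenals. Its log2 change was -0.60 ± 0.44 (adjusted p = 0.649), with replicate 1 highest in each group. Rpsa, also known as the laminin receptor precursor, read 17470, 13632 and 9545 against 17048, 14151 and 15376 (-0.24 ± 0.21). Rps29 had 1388 ± 315 in knockout and 1690 ± 317 in wild-type adrenals (SD, n = 3 arrays each; -0.29 ± 0.24). In all 3 genes the groups overlapped.

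Rps19, the gene most often mutated in Diamond-Blackfan anaemia, varied between animals of both genotypes. It read 29518, 15433 and 16461 in knockout and 29916, 15668 and 23610 in wild-type adrenals, a log2 change of -0.19 ± 0.29. Rps13 was more uneven, at 1649, 570 and 1020 against 1711, 1094 and 549. Its coefficient of variation over the 6 arrays was 45.8%, and that of Rps19 was 31.5%. Neither gene separated the genotypes. Rps3, at the entry of the messenger RNA channel, had a value of -0.08, Rps3a1 -0.05, Rps7 0.05, Rps4x 0.07 and Rps10 0.09, all with overlapping groups.

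**Figure D2:**
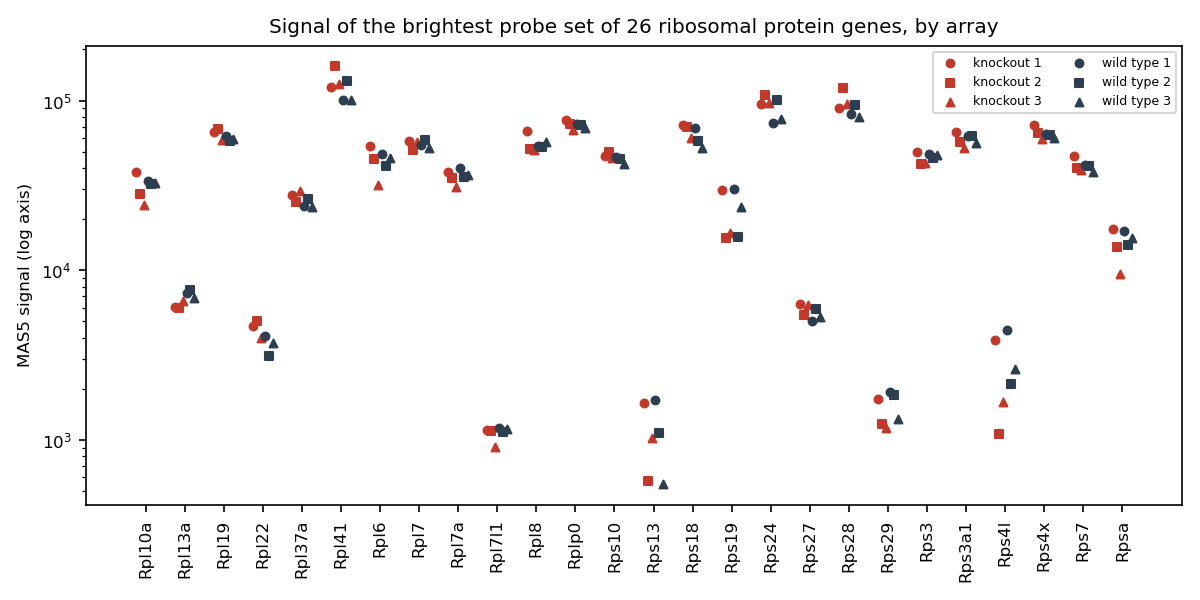
MAS5 signal (log axis) of the brightest probe set of each of the 26 tested genes, with red symbols for the 3 knockout and dark symbols for the 3 wild-type arrays. The groups overlap for every gene except Rpl13a, and Rps4l, Rps13 and Rps19 spread most widely; heights of different genes come from different probes and are not comparable.

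Genes in use as reference transcripts differed in spread. Their probe sets also differed in brightness. Mean signals in knockout and wild-type adrenals were 72403 and 71174 for Rplp0, and 1388 and 1690 for Rps29. The spreads are therefore those of the probe sets and do not rank the genes. Over the 6 arrays the coefficient of variation of the signal was 4.96% for Rplp0, 7.07% for Rpl19, 9.68% for Rpl13a, 12.3% for Rps18 and 21.3% for Rps29. The interval of the fold between genotypes was 0.858 to 1.20 for Rplp0 and 0.905 to 1.28 for Rpl19. It was 0.700 to 1.05 for Rpl13a and 0.916 to 1.40 for Rps18, and widest, at 0.566 to 1.19, for Rps29. The remaining one on the list, Rpl32, had no probe set past the filter, and Rpl4 and Rpl27 had none under the rule and were not analysed here.

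Arrays of 1 genotype differed among themselves. On knockout array 1, 23 of the 26 genes lay above their own mean over the 6 arrays, with a median deviation of 0.16 in log2. On knockout arrays 2 and 3, 11 and 7 genes did, with medians of -0.04 and -0.09. The wild-type arrays had medians of 0.05, 0.00 and -0.07, and the median over all tested probe sets lay between -0.02 and 0.04 on each array. Knockout array 1 held the highest of the 6 values for 11 genes and the lowest for none, and knockout array 3 held the lowest for 10. The array medians of the 2 genotypes overlapped.

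**Figure D3:**
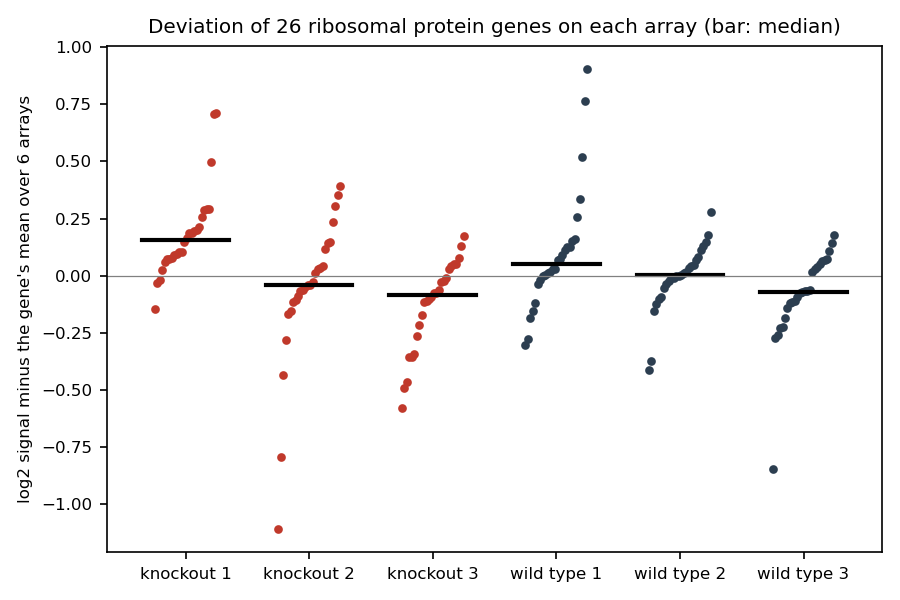
Log2 signal of each of the 26 genes minus that gene's mean over the 6 arrays, per array, with red points for knockout, dark points for wild type and black bars for the median. Knockout array 1 stands highest with a median of 0.16, and the medians of knockout arrays 2 and 3 (-0.04 and -0.09) fall among or near the wild-type medians (0.05, 0.00 and -0.07).

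Knockout arrays 2 and 3 were also those with the high 3′ to 5′ ratios and the muscle transcripts given above. When knockout array 1 was the only knockout array kept, 25 of the 26 genes had positive values, with a median of 0.17, and 0 passed in limma at either level. With the Gapdh ratio as a covariate, 25 were positive as well, with a median of 0.21, and 0 passed. That ratio stood well above the other arrays only on knockout arrays 2 and 3, so the genotype term rested mainly on knockout array 1. The covariate fit is therefore no separate check of the fit before it. Where these fits are paired below, the same holds. The exception was Rpl13a in both fits, at -0.26 and -0.25. Without knockout array 1 the median was -0.06, with 9 positive values. Rps4l (-1.10), Rpsa (-0.44) and Rpl10a (-0.33) then had an unadjusted p under 0.05 in limma, while 0 passed the adjusted threshold. In that fit 714 of all 7453 tested probe sets were lower at the unadjusted level. Summed macrophage markers (10 genes) were also highest on knockout arrays 2 and 3. The sums were 23350, 42211 and 35649 in knockout and 19653 to 24195 in wild-type adrenals. Single markers did not all follow this order. Mpeg1 was highest on knockout array 1, with 2880, 2204 and 2639 on knockout arrays 1 to 3. Csf1r and Cd14 lay above all wild-type arrays on every knockout array. All 9 markers tested had positive values, with a median of 0.63, and 0 passed in limma, where 0.443% of all tested probe sets did. The part of macrophages in the values of ribosomal protein genes was not tested.

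The 26 brightest probe sets together made up between 2.5% and 2.81% of the summed signal of a knockout array and between 2.46% and 2.61% of that of a wild-type array, so the groups overlapped. The means were 2.68% and 2.55%. A proportional change of all transcripts would not appear in a share of this kind.

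For 9 genes the representative probe set was too dim to test, with mean signals between 88.6 and 376. They were Rpl32, Rpl35a, Rpl38, Rpl39, Rpl39l, Rps14, Rps15, Rps20 and Rps27l. Rps14 read 343, 324 and 470 in knockout and 94.9, 543 and 98.8 in wild-type adrenals, and Rps20 read 444, 138 and 557 against 80.2, 399 and 247. Groups overlapped for all 9. Most of these proteins are core parts of the ribosome, so a dim probe set here shows what that probe set detected, not that a gene was silent.

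Probe sets of 1 gene could differ widely. Of the 10 genes with several, 3 had more than 1 past the filter. Of the 5 probe sets of Rps4x, 1 was bright, with 65129 ± 6538 in knockout and 62061 ± 1504 in wild-type adrenals (SD, n = 3 arrays each), and the others had group means between 80.5 and 356. Rps24, Rpl19, Rpl7, Rps28 and Rps29 likewise had a dim probe set beside the representative. Ribosomal protein genes have many near-identical processed pseudogenes, and the probe sets used for Rpl41, Rps28, Rps24, Rps13, Rpl7 and Rps4l carry suffixes that mark relaxed specificity, so their signals may include copies. Another 39 probe sets listed a ribosomal protein gene beside other symbols and were left unnamed. Of these, 35 were tested and 0 passed in limma, 1 had an unadjusted p under 0.05, and their median log2 change was 0.06, with 23 values above and 12 below 0. For 7 of the 35 the groups did not overlap with knockout higher, and for 0 with it lower, against 7.55% and 8.83% of all tested probe sets.

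The rest of the translation machinery was compared through lists. Of 36 initiation and elongation factor genes tested, 0 passed in limma, and 1 was higher and 3 lower at an unadjusted p under 0.05, where 5.06% and 6.25% of all tested probe sets were. Their median log2 change was -0.08, but 0.05 with the Gapdh ratio as a covariate and 0.04 when knockout array 1 was the only knockout array. Single values ran in both directions, with Eif3m, of the initiation factor eIF3, at -0.42 (adjusted p = 0.402) and Eef1a2, an elongation factor form of muscle and nerve, at 0.52. Of 14 other TOP messages 0 passed at either level, with a median of -0.03. This list shares Eef1a1, Eef1d, Eef2, Eif3e, Eif3f, Eif3l and Eif4b with the factor list, and Npm1 with the biogenesis list below. Eef1a1, the main elongation factor, read 110040, 125954 and 101539 in knockout and 97326, 109622 and 95873 in wild-type adrenals (0.15 ± 0.12), and Eef2, which moves the ribosome along, had a value of 0.04 ± 0.12. Of 10 ribosomal S6 kinase and mTOR pathway genes 0 passed at either level, with a median of 0.08 and Mtor at 0.16.

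Genes that build ribosomes had lower medians. Of 35 ribosome biogenesis genes 0 passed in limma, 0 were higher and 4 were lower at an unadjusted p under 0.05, and 29 values lay below 0, with a median of -0.22. Of all tested probe sets 5.06% were higher and 6.25% lower at that level. The groups did not overlap for 7 of the 35 with knockout lower and for 2 with it higher. Nop10, of the guide particles that modify ribosomal RNA, read 20061, 17630 and 19190 in knockout and 25466, 25068 and 24683 in wild-type adrenals (log2 change -0.40 ± 0.11, adjusted p = 0.257). Fbl, the methyltransferase fibrillarin, read 7801, 6344 and 7407 against 9678, 9689 and 9023 (-0.40 ± 0.14, adjusted p = 0.355). Both lay lower in knockout without overlap, as did 8.83% of all tested probe sets. The nucleolar protein genes Ncl and Npm1 had values of -0.11 and -0.14. Both with knockout array 1 as the only knockout array and with the Gapdh ratio as a covariate, this median was -0.02.

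**Figure D4:**
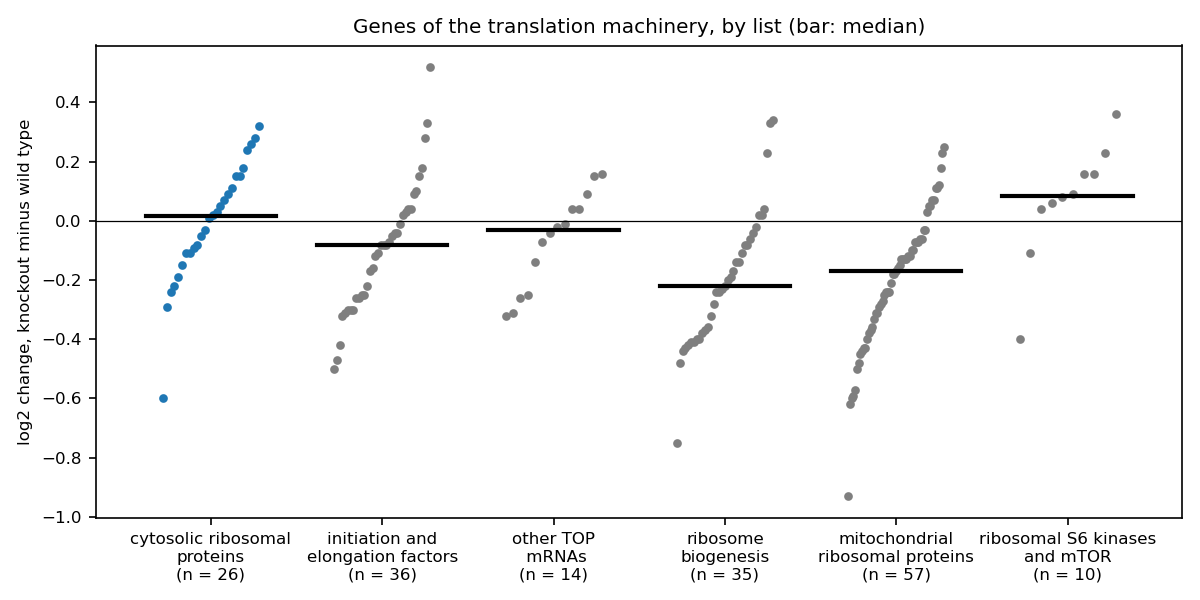
Log2 change between 3 knockout and 3 wild-type arrays for each tested gene of the cytosolic ribosomal protein genes and of 5 comparison lists, sorted within each list, with black bars for medians. The ribosomal protein genes (blue) centre on 0.02, and ribosome biogenesis (-0.22) and mitochondrial ribosomal protein genes (-0.17) have the lowest medians. Some comparison lists share genes.

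Fau, which encodes a small subunit protein as a fusion with a ubiquitin-like part and falls outside the rule, was below the filter. It read 566, 657 and 703 in knockout and 485, 551 and 513 in wild-type adrenals, without overlap and without a test. The other stalk genes, Rplp1 and Rplp2, as well as Rpl3, Rpl5, Rpl11, Rpl23, Rps6 and Rps27a had no probe set under the rule and were not analysed here.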

How the data were processed

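RNA of 6 adrenal samples was measured on single-colour Affymetrix arrays. Each probe set has 1 deposited intensity per array, on a linear scale, which the authors computed with MAS5 (per the submitters' processing notes). The MAS5 version and scaling target, like a genome build, were not given in the sources used here. Of the probe sets, 66 controls were left out. Symbols came from the platform annotation, and all 35 member genes matched a RefSeq table of GRCm38.

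Values were taken as log2(signal + 16), without further scaling, and probe sets under the 40th percentile of mean log2 signal were left out. Groups, taken from the sample titles, entered a linear model in limma 3.58.1 under R 4.3.3 (lmFit, then eBayes with trend), and p values were adjusted by Benjamini-Hochberg over the 7453 probe sets kept, to a threshold of 0.05; all adjusted p values are from it. The script was tested on simulated data. Errors of log2 changes are standard errors. An array gives no counting depth, and 3 arrays per group limit the precision. Fold changes on this scale understate those of dim genes.

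The members, lists and tests were chosen with earlier results of these data known. Genes named were Chga, the 8 members of smallest unadjusted p in each direction, stalk, reference, regulatory and paralogous members, dim members, members with disagreeing probe sets, and up to 4 members of each list; Eef1a1, Eef2, Ncl, Npm1, Mtor, Mrpl48, Chgb and the remaining members were named after their values were seen. Enzymes and kinases acting on translation factors were dropped from the factor list by name. Samples sharing a replicate number did not deviate together in every pair (correlations across probe sets of 0.26, -0.04 and -0.04), so the numbers were not used as pairs.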

Additional observations from a re-analysis of the deposited data

How the results depend on the processing

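In limma, 0 ribosomal protein genes passed the threshold under every alternative run: other pseudocounts, filters, scalings, variance models, the replicate block, each array left out, the Gapdh covariate, knockout array 1 alone, other probe sets per gene and other memberships. The smallest adjusted p of any of the 29 probe sets was 0.155. The median log2 change, 0.02 in the reported fit, moved to 0.21 with the Gapdh covariate and to 0.17 with knockout array 1 alone, where the lone array was assumed to vary like the others, and it was -0.04 with quantile normalization. Genes with an unadjusted p under 0.05 numbered 0 to 3 over the fits without 1 array. They were Rps4l, Rpsa and Rpl10a without knockout array 1, and Rpl41 and Rps24 without wild-type array 2. There were 4 with the replicate block (Rpl41, Rps24 and Rps28 higher, Rps4l lower). There was 1 with the probe sets of several symbols, a setting chosen after seeing the data. Of all 7453 tested probe sets, 714 were lower at that level without knockout array 1 and 512 with the replicate block. In the reported fit 466 were. Over all probe sets the count of 33 became 12 with the Gapdh covariate, 13 with knockout array 1 alone, 17 without an intensity trend, 57 with the replicate block, and 15 to 141 over the fits without 1 array. Of 489 single values under 17 alternatives, 32 moved by more than the residual spread and 48 turned their sign, on 17 of 29 probe sets. The cause was not tested.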

Other observations

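The mitochondrial ribosome, which is built from a separate set of proteins, had lower values than the cytosolic one. Of 57 mitochondrial ribosomal protein genes tested 0 passed in limma, 0 were higher and 9 were lower at an unadjusted p under 0.05, and 46 values lay below 0, with a median log2 change of -0.17. Of all tested probe sets 5.06% were higher and 6.25% lower at that level. For 17 of them the knockout arrays all lay below the wild-type arrays, where 8.83% of all tested probe sets did, and for 1, Mrpl48, they lay above. Mrps22 read 1275, 882 and 1117 in knockout and 2350, 1672 and 2262 in wild-type adrenals (log2 change -0.93 ± 0.23, adjusted p = 0.192). Mrpl50 read 1434, 1437 and 1490 against 2064, 2332 and 2367 (-0.62 ± 0.17, adjusted p = 0.235), and Mrps18a had a value of -0.60 ± 0.15 (adjusted p = 0.192). With knockout array 1 as the only knockout array this median was -0.09, and it was -0.13 with the Gapdh 3′ to 5′ ratio as a covariate. Without knockout array 1, 1 of the 57 genes passed, where 141 of all 7453 tested probe sets did. The difference between the mitochondrial and the cytosolic list was not tested.

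The control probe set for the 5′ part of 18S ribosomal RNA, the RNA of the small subunit, read 59558 on wild-type array 2 and 1621 to 6829 on the other 5 arrays. The 3′ probe set of the same RNA read 7560 on that array and 4198 to 6168 on the others. These control probe sets entered no comparison.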
